A study of Mus musculus with 18 samples.

Results

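Keratins are the intermediate filament proteins of epithelial cells. The genes followed here are the protein-coding rows of the deposited table whose name is Krt and a number, 6 of 10897 genes: Krt7, Krt8, Krt18, Krt19, Krt20 and Krt23. GENCODE M21 lists 49 protein-coding mouse genes named in that way, and the other keratins are not analysed here. Every gene of the table had an FPKM (fragments per kilobase of transcript, scaled by depth) of at least 1 in at least 15 of 18 libraries. A keratin confined to 1 group would therefore not be among the 6.

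The libraries were made from colorectal tissue of male C57BL/6J mice aged 10 weeks, 6 in each of 3 groups. Azoxymethane (AOM), a carcinogen that induces colon tumours, was given to all 3 groups according to the sample characteristics. There, Control is wild-type with a specific pathogen-free (SPF) flora, GF-AOM is germ-free, and GF-AOMS is germ-free and exposed to cigarette smoke. Elsewhere in the labels the same groups are a normal control, a model given AOM, and that model exposed to smoke, all housed as SPF animals. Smoke is thus what sets GF-AOMS apart from GF-AOM in either description, and the factors that separate these groups from Control cannot be told apart. The labels give 6 mice per group but tie no library to a mouse, so p-values measure the spread between these libraries, which may be technical.

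A keratin filament is built from pairs of 1 type I (acidic) and 1 type II (basic) chain, so the 2 classes are needed in equal amounts. The single-layered epithelium of the colon makes Krt8 as its main type II keratin and pairs it with Krt18, Krt19 or Krt20. Krt8 and Krt18 are the first keratins of simple epithelia and are present along the whole crypt. Krt19 is a type I keratin with a very short tail domain. Krt20 is made by differentiated cells towards the mucosal surface. Krt7 is the type II keratin of ducts and glands, and Krt23 is a type I keratin of low abundance in the gut. Loss of Krt8 in some mouse strains causes colonic hyperplasia and colitis.

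By the table's positions, which match build GRCm38, the genes lie in 2 places. Krt7 (ENSMUSG00000023039, chromosome 15, 101411043 to 101430313, plus strand) and Krt8 (ENSMUSG00000049382, chromosome 15, 101996698 to 102004482, minus strand) are type II genes. Krt18 (ENSMUSG00000023043, chromosome 15, 102028180 to 102032027, plus strand) is the exception among the type I genes and lies 23697 bases from Krt8, facing away from it. Krt20 (ENSMUSG00000035775, chromosome 11, 99428403 to 99438150), Krt23 (ENSMUSG00000006777, chromosome 11, 99477974 to 99493137) and Krt19 (ENSMUSG00000020911, chromosome 11, 100140810 to 100146120) are all on the minus strand. The first listed transcript has 9 exons for Krt8 and Krt7, 7 for Krt18, 6 for Krt19 and 8 for Krt20 and Krt23.

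RefSeq promoter windows (build GRCm38.p6) run from 250 bases before to 50 after the start annotated in RefSeq. They were found for 5 of the 6 genes, and 4 are shown. These starts can differ from the gene positions given above. The whole Krt7 window, from 101412153, lies inside the gene as given, which begins at 101411043. The RefSeq start of Krt8 also lies inside its gene, whose 5′ end is at 102004482. Krt8 and Krt20 are shown because their mRNAs moved together over the libraries, Krt18 because it did not follow its neighbour Krt8, and Krt7 because it had the smallest p between groups. Each runs 5′ to 3′ along its gene. Capitals mark 3 motifs on either strand: the TATA box TATAAA, the GC box GGGCGG and the CACCC element. Adjoining or overlapping matches run together.
Krt8, chr15:102004293-102004592, minus strand: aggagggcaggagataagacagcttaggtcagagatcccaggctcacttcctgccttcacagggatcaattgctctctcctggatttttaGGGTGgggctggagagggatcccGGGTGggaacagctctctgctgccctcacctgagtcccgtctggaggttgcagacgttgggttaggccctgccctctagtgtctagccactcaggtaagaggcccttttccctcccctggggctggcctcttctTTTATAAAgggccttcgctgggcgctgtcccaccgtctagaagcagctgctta
Krt20, chr11:99438104-99438403, minus strand: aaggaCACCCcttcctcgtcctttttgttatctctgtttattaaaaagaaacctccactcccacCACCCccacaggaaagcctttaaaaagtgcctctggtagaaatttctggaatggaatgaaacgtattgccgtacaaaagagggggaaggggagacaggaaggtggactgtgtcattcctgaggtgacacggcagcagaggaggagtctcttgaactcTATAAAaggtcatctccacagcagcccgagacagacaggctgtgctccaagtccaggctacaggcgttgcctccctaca
Krt18, chr15:102027966-102028265, plus strand: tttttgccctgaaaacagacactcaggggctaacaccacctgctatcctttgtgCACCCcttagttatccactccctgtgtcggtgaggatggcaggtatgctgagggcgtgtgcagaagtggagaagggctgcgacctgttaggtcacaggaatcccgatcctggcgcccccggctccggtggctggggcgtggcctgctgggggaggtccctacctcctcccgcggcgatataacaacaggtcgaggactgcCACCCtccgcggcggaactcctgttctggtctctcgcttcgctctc
Krt7, chr15:101412153-101412452, plus strand: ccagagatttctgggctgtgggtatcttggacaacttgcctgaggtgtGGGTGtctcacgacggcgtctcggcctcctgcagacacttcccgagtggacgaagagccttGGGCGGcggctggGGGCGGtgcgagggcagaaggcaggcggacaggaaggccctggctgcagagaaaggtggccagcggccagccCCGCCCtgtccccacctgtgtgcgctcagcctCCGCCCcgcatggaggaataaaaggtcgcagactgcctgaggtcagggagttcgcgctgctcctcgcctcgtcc

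The windows of Krt8 and Krt20 each hold TATAAA, which 13.6% of 32851 RefSeq windows of 300 bases hold. In Krt20 it begins at position -29, counted back from the annotated start. In Krt8 it reads on both strands across the RefSeq start itself, from position -3. The windows of Krt18, Krt7 and Krt23 hold no TATAAA. Krt7 alone holds GGGCGG, with 4 matches, a motif of 35.7% of windows. CACCC, found in 57.5% of windows, has 2 matches each in Krt8, Krt18 and Krt20, 1 in Krt7 and 0 in Krt23. TTTAT, a core recognised by the intestinal factor Cdx2 and present in 40.0% of windows, was searched too. Krt20 holds it at position -214, and the other matches in Krt20 and Krt8 overlap TATAAA. Krt7 and Krt23 have 1 match each, and Krt18 does not. These are letter matches and not measured binding sites.

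Keratin levels were first compared between genes per length, in FPKM. Krt8 was the highest of the 6 in every library, at 974.9 to 2517 FPKM with a median of 1574 FPKM. Krt19 came next in all 18 libraries, at 360.4 to 1269 FPKM (median 760 FPKM). Krt8 exceeded Krt19 by a median ratio of 2.01 and by at least 1.64. Krt18 (217 to 472.3 FPKM, median 272.9 FPKM) and Krt20 (121.8 to 604.6 FPKM, median 258.8 FPKM) changed places between libraries. Krt18 was above Krt20 in 12 of 18, so these neighbours do not have a fixed order. Krt7 was far lower, at 7.46 to 22.5 FPKM (median 12.3 FPKM), and was above Krt23 in 18 of 18. Krt23 closed the order at 3.17 to 8.73 FPKM (median 4.7 FPKM). In reads, Krt8 had 109468 to 283052 counts per library and Krt23 had 284 to 933 counts. The 6 genes took 0.383% to 1.017% of all counts in the table.

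The sums of the 2 keratin classes stayed close to each other in all libraries. The type II sum (Krt8 and Krt7) ran from 982.3 to 2535 FPKM and the type I sum (Krt18, Krt19, Krt20 and Krt23) from 757.8 to 2119 FPKM. Their ratio lay between 1.04 and 1.42 in 18 libraries, with type II the higher in each. The 6 Control libraries averaged 1.19 (SD 0.117), those of GF-AOM 1.20 (SD 0.127) and those of GF-AOMS 1.19 (SD 0.136). On the log2 scale the ratio had an SD of 0.14 over the libraries, against 0.36 for the type II sum and 0.44 for the type I sum. A factor common to a library, such as its scaling or epithelial content, enters both sums and cancels in the ratio. The smaller SD is thus partly built in and is no test of a balance between the classes. The ratio is a level per length and rests on the transcript lengths the authors used.

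The make-up of the type I sum varied more than the sum's balance with type II. Krt18 gave 10.8% to 34.8% of type I FPKM, Krt19 44.6% to 63.1% and Krt20 13.3% to 28.5%. The mean share of Krt18 was 18.3% (SD 5.73) for the 6 Control libraries, 26.9% (SD 4.32) for GF-AOM and 24.0% (SD 8.31) for GF-AOMS. Control replicates 4 and 5 had the lowest shares, 11.8% and 10.8%, and GF-AOMS replicates 1 and 2 the highest, 34.8% and 34.3%. Control had a mean log2 ratio of Krt18 to Krt19 FPKM of -1.74 (SD 0.57), GF-AOM of -0.99 (SD 0.35) and GF-AOMS of -1.29 (SD 0.66). The ranges of the groups overlapped for the shares of all 3 genes.

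**Figure D1:**
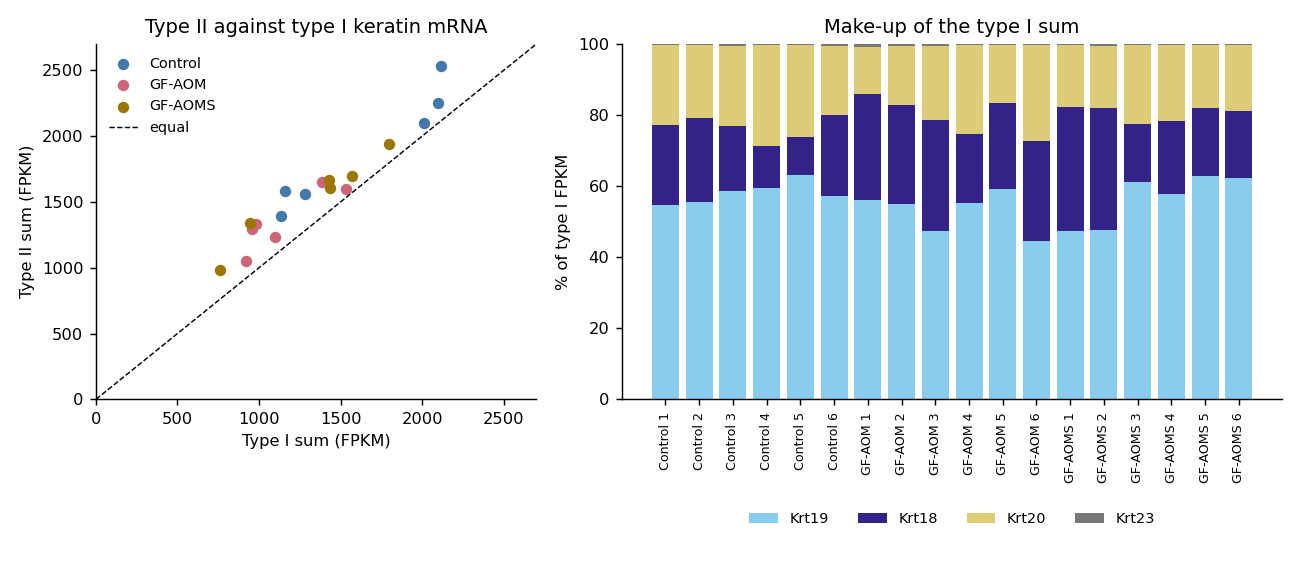
Left, summed FPKM of the type II keratins (vertical) against the type I keratins (horizontal), 1 point per library, coloured by group, with a dashed line of equality. Right, the percentage of the type I sum given by each type I keratin in each library. All 18 points lie above the line, at ratios of 1.04 to 1.42, while the share of Krt18 ranges from 10.8% to 34.8%.

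GF-AOM was compared with Control in CPM (counts scaled to a common library size, 1e+06 counts, after TMM scaling), with an edgeR quasi-likelihood test over all genes. No keratin passed an adjusted p under 0.05, and over all genes 1 of 10897 passed (0.00918%). For 0 of the 6 keratins did the groups' CPM values not overlap, where 0.762% of all genes were free of overlap. Means of 5 of the 6 keratins lay lower in GF-AOM, with a median log2 difference over the 6 of -0.44, against -0.0038 over all genes. At an unadjusted p under 0.05 stood 4 of the 6 (Krt7, Krt19, Krt20 and Krt8), where 15.7% of all genes did. Fewer epithelial cells and less keratin RNA per cell cannot be told apart in tissue RNA. The list of 14 epithelial genes without keratins, all of them measured, is given beside them. Of these, 12 were negative and 0 passed, with a median of -0.36, and Epcam was at -0.53 (SE 0.16, adjusted p = 0.146). An unadjusted p under 0.05 was found for 7 of the 14.

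Krt8 lay at 3216, 3786 and 5503 CPM (lowest, median, highest) in Control and at 2270, 3275 and 3637 CPM in GF-AOM. All 6 GF-AOM libraries were below the Control mean of 4081 CPM (SD 873), and replicates 1 and 5 were clearly below every Control library, with replicate 2 level with the lowest of them. The log2 difference was -0.38 (SE 0.17, 95% interval -0.75 to -0.02, edgeR adjusted p = 0.301).
Krt7 lay at 86.8, 129.2 and 160.9 CPM in Control and at 80.1, 93.3 and 102.8 CPM in GF-AOM. Control replicates 1 and 3 to 6 were above all 6 GF-AOM libraries, and Control replicate 2 lay within them. Its difference was -0.50 (SE 0.13, 95% interval -0.78 to -0.21, edgeR adjusted p = 0.111).
Krt19 lay at 1419, 1893 and 2613 CPM in Control and at 1066, 1287 and 1621 CPM in GF-AOM. Of the GF-AOM libraries 4 were below every Control library. Its difference was -0.56 (SE 0.21, 95% interval -1.01 to -0.12, edgeR adjusted p = 0.233).
Krt20 had the widest spread, at 498.6, 781.5 and 1301 CPM in Control and 262.6, 527.3 and 711.5 CPM in GF-AOM. Replicates 1, 4 and 5 of Control were above all GF-AOM libraries and the others lay among them. Its difference was -0.66 (SE 0.27, 95% interval -1.24 to -0.08, edgeR adjusted p = 0.271).

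Krt18 did not share this direction. It lay at 309.6, 418.2 and 728.3 CPM in Control and at 405.2, 500 and 638.4 CPM in GF-AOM, with a log2 difference of 0.18 (SE 0.20, 95% interval -0.23 to 0.60, edgeR adjusted p = 0.602). The highest Control library, replicate 1, was above every GF-AOM and GF-AOMS library, and the others of the 2 groups overlapped. Krt23 lay at 5.55, 10.5 and 14.7 CPM in Control and at 6.5, 9.35 and 13.4 CPM in GF-AOM, with a difference of -0.14 (SE 0.23, edgeR adjusted p = 0.737).

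**Figure D2:**
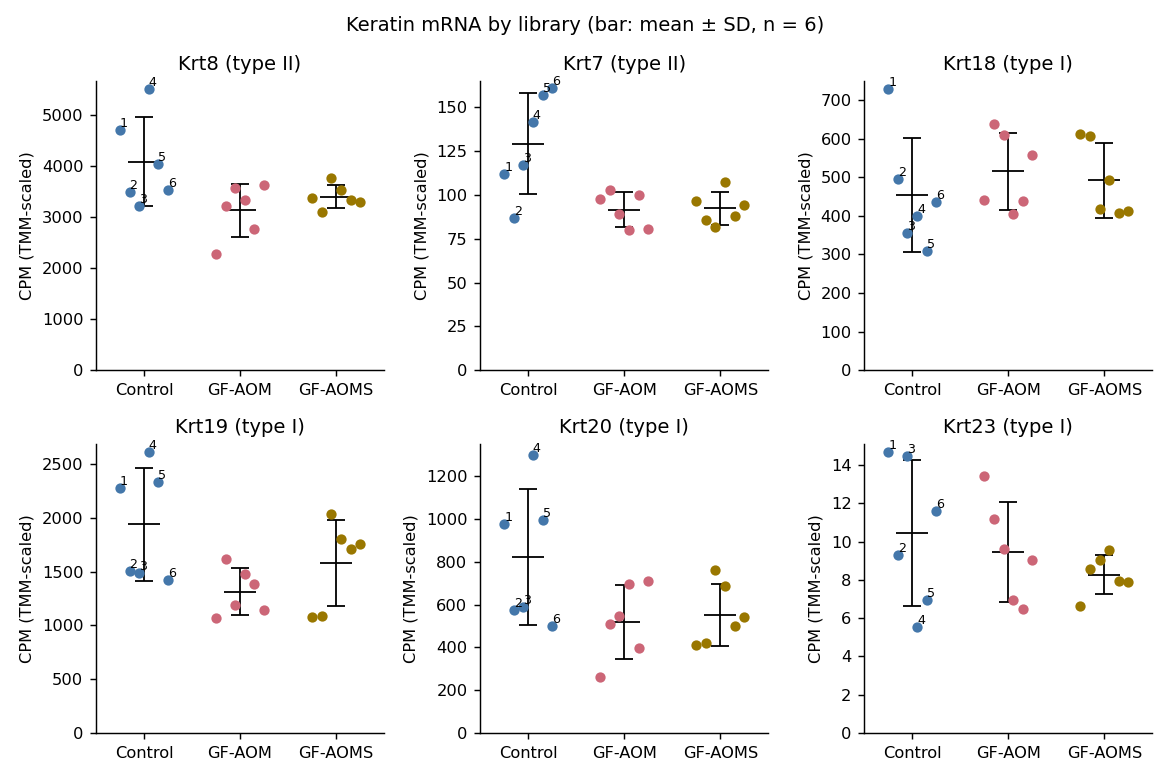
CPM of the 6 keratin genes (vertical, each panel with its own scale from 0) in the 3 groups, 1 point per library, with the mean and SD of 6 libraries as bars. Digits beside the Control points are replicate numbers. For Krt7, Control replicate 2 is the 1 Control library within the range of GF-AOM, and in no panel are the groups fully apart.

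GF-AOMS was compared with the same 6 Control libraries, so its values are not independent of those for GF-AOM. Over all genes 80 of 10897 passed (0.734%), and 0 of 6 keratins did. Groups without overlap were found for 0 of 6 keratins and 0.798% of all genes. Krt7 lay at 81.7, 91.2 and 107.7 CPM in GF-AOMS, again below replicates 1 and 3 to 6 of Control. Its log2 difference was -0.49 (SE 0.13, edgeR adjusted p = 0.0997). Krt20 lay at 409.5, 520 and 764.2 CPM, with a difference of -0.57 (SE 0.27, edgeR adjusted p = 0.306). These were the 2 of 6 keratins at an unadjusted p under 0.05, a mark that 16.2% of all genes reached. Of the 14 epithelial genes 6 reached it. Krt8 lay at 3103, 3352 and 3768 CPM, with a difference of -0.26 (SE 0.17). The coefficient of variation of Krt8 in GF-AOMS was 6.69% in CPM but 21.8% in FPKM, so its spread depends on the scaling. Krt19 was at -0.30 (SE 0.21), Krt23 at -0.33 (SE 0.23) and Krt18 at 0.12 (SE 0.20). In both comparisons DESeq2 called Krt7 (adjusted p = 0.0227 for GF-AOM and 0.0269 for GF-AOMS), 1 of 6 keratins, while it called 2.66% and 3.44% of all genes. In both, edgeR also called Krt7 once Control replicate 2 was left out, at -0.59 (adjusted p = 0.0126) and -0.58 (adjusted p = 0.0108). The share of all genes called in that fit is not given here. For GF-AOM the edgeR adjusted p fell there for Krt8 (0.141), Krt19 (0.1015) and Krt20 (0.118) too. By the position genes described below, replicate 2 was distal, unlike Control replicates 3 to 6.

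Smoke was compared in GF-AOMS against GF-AOM. No keratin passed, 0 of 6 had an unadjusted p under 0.05, and 0 of 10897 genes passed (0.0%), with 119 at an unadjusted p under 0.05 (1.09%). DESeq2 called 0 keratins and 3 genes in all (0.0276%). All 6 keratins overlapped between these groups, and 0.0642% of all genes did not. The differences were 0.12 for Krt8 (SE 0.17, 95% interval -0.24 to 0.48), 0.27 for Krt19 (SE 0.21, -0.18 to 0.71) and 0.09 for Krt20 (SE 0.27, -0.48 to 0.66). They were 0.01 for Krt7 (SE 0.13, -0.27 to 0.30), -0.07 for Krt18 (SE 0.20, -0.48 to 0.35) and -0.19 for Krt23 (SE 0.23, -0.68 to 0.30). The intervals for Krt8, Krt7 and Krt18 lie within 0.5 on either side of 0, and those of Krt19, Krt20 and Krt23 do not. Krt19 in GF-AOMS fell into 2 levels, with replicates 1 and 2 at 1077 and 1087 CPM and replicates 3 to 6 at 1714 to 2033 CPM. Replicates 1 and 2 were also the GF-AOMS libraries with the lowest mean of the epithelial genes (8.24 and 7.83 log2 CPM). They had the highest Krt18 of GF-AOMS in CPM (612.8 and 608.1 CPM). In FPKM, replicate 1 was still the highest (329 FPKM) but replicate 2 was the lowest (260.3 FPKM).

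Exact permutation tests (two-sided) on log2 CPM were run for the 6 genes in the 3 comparisons, 18 tests with a smallest possible p of 0.00216. An unadjusted p under 0.05 was found in 4 of these tests, and 0 passed Benjamini-Hochberg adjustment over the 18 (smallest adjusted p = 0.156). The exact p was 0.0173 for Krt7, 0.026 for Krt19 and 0.0455 for Krt8 in GF-AOM against Control, and 0.0195 for Krt7 in GF-AOMS against Control. Krt20 gave p = 0.0649 in GF-AOM against Control by the same exact test.

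The Control libraries were not alike in colon position. Hoxa13 and Hoxb13 mark the distal part of the colon, and their mean was 6.16 and 6.82 log2 CPM in Control replicates 1 and 2 but -1.70 to 1.51 log2 CPM in replicates 3 to 6, with Hoxa13 at 0 CPM in the lowest. The GF-AOM and GF-AOMS libraries lay at 4.47 to 6.72 log2 CPM. Control replicates 3 to 6 also had the highest Krt7 of the study, 116.9 to 160.9 CPM, while replicates 1 and 2 had 112.2 and 86.8 CPM and GF-AOM and GF-AOMS 80.1 to 107.7 CPM. Krt18 ran the other way, with 728.3 and 494.4 CPM for replicates 1 and 2 and 309.6 to 436.2 CPM for replicates 3 to 6. For Krt8, Krt19 and Krt20 the values of replicates 1 and 2 lay within those of replicates 3 to 6.

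Each keratin was therefore set against Control with and without these libraries. With Control replicates 1 and 2 only, the difference of Krt7 from GF-AOM was -0.12 (SE 0.15, edgeR adjusted p = 0.999), in place of -0.50. Krt18 was then at -0.25 (SE 0.24) in place of 0.18. Krt8 was at -0.39 (SE 0.23), Krt19 at -0.53 (SE 0.27) and Krt20 at -0.58 (SE 0.34), close to their values over all libraries. None of the keratins passed, and over all genes 1 of 10897 passed in this fit. With the Hox13 mean as a term of the model Krt7 was at -0.22 (SE 0.15), Krt18 at -0.11 (SE 0.22), Krt8 at -0.35 (SE 0.22), Krt19 at -0.51 (SE 0.27) and Krt20 at -0.49 (SE 0.34). Krt23 was at -0.34 (SE 0.26) with the 2 Control libraries and -0.41 (SE 0.29) with the term. With the term 0 of 10897 genes passed in either comparison with Control. For GF-AOMS against Control, Krt7 was at -0.11 (SE 0.15) with the 2 Control libraries and at -0.20 (SE 0.15) with the term. Krt23 moved the other way there, from -0.33 to -0.53 (SE 0.26) and to -0.61 (SE 0.29, edgeR adjusted p = 0.976). With the term it was the 1 keratin of 6 at an unadjusted p under 0.05, a mark that 4.57% of all genes reached.

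Epithelial content was examined in the same way. Control libraries had a mean of the 14 epithelial genes of 8.57 log2 CPM (SD 0.159), GF-AOM libraries of 8.28 (SD 0.146) and GF-AOMS libraries of 8.34 (SD 0.28). With this mean as a term of the model, GF-AOM differed from Control by -0.18 for Krt8 (SE 0.17), -0.12 for Krt19 (SE 0.16) and -0.14 for Krt20 (SE 0.23). Krt7 remained at -0.49 (SE 0.16, edgeR adjusted p = 0.464), and Krt18 was at 0.07 (SE 0.23). In GF-AOMS against Control the term brought Krt8 to -0.10 (SE 0.16), Krt19 to 0.023 (SE 0.15) and Krt20 to -0.14 (SE 0.23), with Krt7 at -0.48 (SE 0.15). No keratin passed in any of these fits. With the epithelial content term 0 of 10897 genes passed in either comparison with Control. The change of a value between fits was not tested. Epithelial genes that respond to the groups themselves would carry that response into the term.

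**Figure D3:**
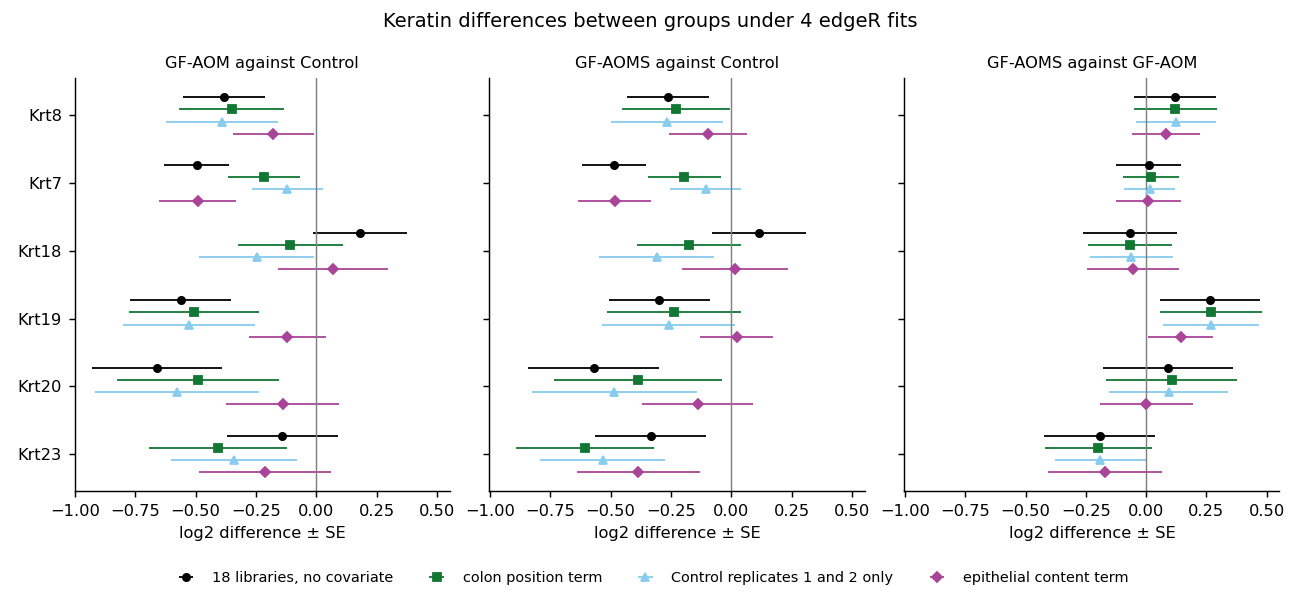
Log2 differences with their SE (horizontal) for each keratin (vertical) in the 3 comparisons, from 4 edgeR fits marked by colour and shape. In the comparisons with Control, Krt7 moves most towards 0 with colon position or with Control replicates 1 and 2 only. Krt8, Krt19 and Krt20 move most towards 0 with epithelial content. The split is not clean: in GF-AOM against Control, Krt20 also moves with colon position (-0.66 to -0.49). Krt18 moves there with epithelial content (0.18 to 0.07).

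The keratins were also compared in how they varied from library to library. The correlations of log2 CPM are over 18 libraries that share group, depth and tissue make-up, and are given as descriptions. Krt8 and Krt20 had a Pearson r of 0.92 (Spearman rho 0.84), which was 0.84 without the 2 libraries farthest from the median of Krt8 and 0.90 once group means were removed. Krt19 and Krt20 had an r of 0.81 (rho 0.73), at 0.69 without the 2 farthest libraries and 0.75 with group means removed. Within Control, GF-AOM and GF-AOMS it was 0.99, 0.34 and 0.89. Krt8 and Krt19 had an r of 0.73 (rho 0.60), at 0.58 and 0.60 in the same way, and within the 3 groups it was 0.91, 0.26 and 0.69. In GF-AOM, then, Krt19 followed Krt8 and Krt20 weakly, while Krt8 and Krt20 had 0.91, 0.95 and 0.85 within the 3 groups. Krt8 and its neighbour and partner Krt18 had an r of 0.03 (rho -0.065), with 0.26, 0.54 and -0.45 within Control, GF-AOM and GF-AOMS. Krt18 and Krt19 had an r of -0.36 (rho -0.39), and -0.71 without the 2 libraries farthest from the median of Krt18. Within GF-AOMS it was -0.91 over 6 libraries, and within Control and GF-AOM it was 0.037 and 0.069. In CPM, GF-AOMS replicates 1 and 2 were lowest in Krt19 and highest in Krt18. In FPKM, replicate 2 had the lowest value of GF-AOMS for both Krt18 (260.3 FPKM) and Krt19 (360.4 FPKM). The negative r of Krt18 and Krt19 thus depends on the scaling, and no r was computed in FPKM. Krt19 followed the mean of the epithelial genes most closely (r = 0.87, rho 0.89), followed by Krt20 (0.80, rho 0.82) and Krt8 (0.72, rho 0.63). Krt18 was negative (-0.36, rho -0.51), a value likewise taken in CPM alone. Krt7 and the Hox13 mean had an r of -0.81 but a rho of -0.41. Krt20 and the Hox13 mean had an r of -0.46, with -0.27, -0.80 and 0.53 within the 3 groups. For Krt7, within Control the r was -0.85, and within GF-AOM and GF-AOMS it was 0.77 and 0.38, so the relation of Krt7 rests on Control replicates 3 to 6.

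**Figure D4:**
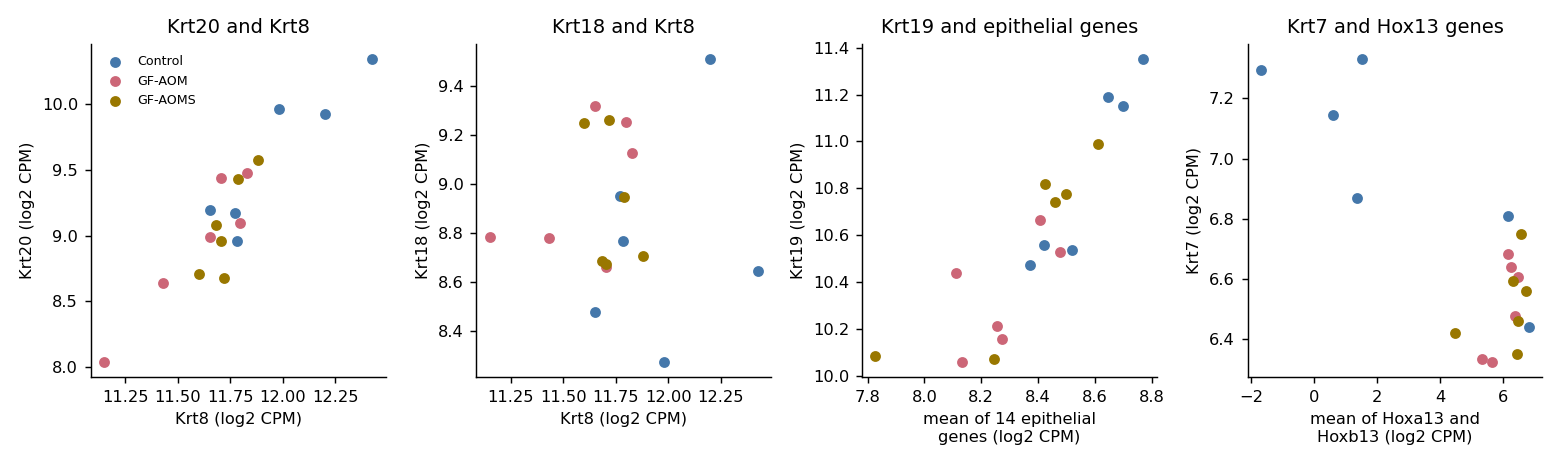
Log2 CPM of 18 libraries, coloured by group, for Krt20 and Krt18 against Krt8, Krt19 against the mean of 14 epithelial genes, and Krt7 against the mean of Hoxa13 and Hoxb13. Krt20 follows Krt8 (r = 0.92) and Krt18 does not (r = 0.03), and in the last panel 4 Control libraries stand apart at the left with Krt7 above all others.

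Keratins aside, the protein-coding genes with the most similar pattern to each main keratin were listed by Pearson r over the 18 libraries. For Krt8 they were Sqor (sulfide oxidation in mitochondria, 0.92), Lgals3 (galectin 3, 0.91), Serpinb5 (maspin, 0.91), Anxa2 (annexin, 0.90) and Mrpl10 (mitochondrial ribosome, 0.90). For Krt20 they were Leng9 (0.94), Vil1 (villin of the brush border, 0.89), Slc9a3r1 (scaffold of apical membranes, 0.89), Dhrs11 (0.88) and Ethe1 (sulfur dioxygenase of mitochondria, 0.88). For Krt19 they were Lta4h (0.96), Atp5b (ATP synthase, 0.95), Wdr1 (actin turnover, 0.95), Kpna2 (nuclear import, 0.95) and Casp8 (0.95). For Krt18 they were Capn9 (a calpain of the digestive tract, 0.85), Fkbp11 (0.84) and H13 (signal peptide peptidase, 0.84). Ssr2 (translocon at the endoplasmic reticulum, 0.84) and Clptm1l (0.84) came next. Being picked as the highest, these r values are high by selection. Without the 2 libraries farthest from the keratin's median they were 0.70 to 0.83 for Krt8 and 0.76 to 0.87 for Krt20. For Krt19 they were then 0.93 to 0.95, and for Krt18 0.79 to 0.93.

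Proteins that anchor or bundle keratin filaments were read from a list of desmosome and linker genes. Of 17 genes 12 were measured, and 0 passed in any comparison. In GF-AOM against Control 10 of 12 were negative, with a median of -0.25, and in GF-AOMS against Control 10 of 12, with -0.16. With smoke 9 of 12 were positive, with a median of 0.11 (all genes 0.01). The desmosomal cadherin Dsg2 had 240.8 ± 88.2 CPM in Control and 111.5 ± 34.5 CPM in GF-AOM (SD, n = 6; log2 -1.11, SE 0.32, edgeR adjusted p = 0.138). Its partner Dsc2 was at -0.57 (SE 0.20) and plakoglobin, Jup, at -0.62 (SE 0.27). Hemidesmosomes tie keratin to the basement membrane, and 4 of 8 such genes were measured, all 4 negative and 0 called in GF-AOM against Control. Among them the laminin chain Lamb3 was at 34.6 ± 10.1 against 64.8 ± 22.7 CPM (SD, n = 6; -0.90, SE 0.26, edgeR adjusted p = 0.14), integrin Itgb4 at -0.45 (SE 0.29) and Cd151 at -0.09 (SE 0.11).

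Transcription factors of gut epithelium with known keratin targets were all measured, 12 of 12, and 0 passed. In GF-AOM against Control 11 of 12 were negative (median -0.36), with Klf5 at -0.45 (SE 0.14, edgeR adjusted p = 0.172), Elf3 at -0.41 (SE 0.14) and Cdx2 at -0.40 (SE 0.16). With smoke 12 of 12 were positive, at a median of 0.12, again with 0 called. The 14 epithelial genes, which share Elf3 with this list, were close to it in both. Of these, 12 were negative in GF-AOM against Control (median -0.36) and 12 positive with smoke (median 0.09). Genes of keratin modification and turnover were mixed, with 13 of 19 negative in GF-AOM against Control (median -0.16). The ubiquitin-binding adaptor Sqstm1, found with keratins in protein aggregates, was at -0.33 (SE 0.11, edgeR adjusted p = 0.209), and the chaperone Hspa8 at 0.22 (SE 0.16). Intermediate filaments of other cells and of the nucleus had 7 of 13 genes measured, 4 of 7 negative and 0 called, with a median of -0.0023. Muscle desmin, Des, was at 0.54 (SE 0.47), the lamins Lmna at -0.23 (SE 0.14) and Lmnb1 at -0.53 (SE 0.34).

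Marker lists of the cells in the tissue were read for the same comparisons. Surface colonocyte genes had 12 of 15 negative in GF-AOM against Control, with a median of -0.92 and 0 called, and 11 of 15 negative in GF-AOMS against Control, with 4 called lower (Car1 at -3.91, Tmigd1 at -1.80, Cdhr5 at -1.34 and Cdhr2 at -1.26), where 0.734% of all genes were called. Their summed level was 10217 to 37352 CPM in Control, 4402 to 9960 CPM in GF-AOM and 5286 to 9797 CPM in GF-AOMS. Goblet genes had 7 of 8 positive in GF-AOM against Control (median 0.41, 0 called). The negative gene was the mucin Muc2, at -0.43 (SE 0.26), and at -0.73 (SE 0.26) in GF-AOMS against Control. Goblet sums were 11651 to 29698, 12258 to 40490 and 14069 to 42417 CPM in Control, GF-AOM and GF-AOMS. The medians of these sums were 19717, 23963 and 17136 CPM. Smooth muscle genes had 10 of 10 positive and 0 called in both comparisons with Control. Their sums were 1881 to 5473, 4057 to 6565 and 2448 to 14026 CPM, with medians of 3764, 4784 and 3893 CPM. The median of GF-AOMS was thus near that of Control. Enteroendocrine genes had 3 of 4 negative in both comparisons with Control (medians -0.87 and -1.07), and Chga and Chgb were called lower in GF-AOMS. In GF-AOMS against Control 0 of 10897 genes were called once colon position or epithelial content was a term of the model. With Control replicates 1 and 2 only the count was also 0. The surface colonocyte and enteroendocrine calls were thus absent from these fits. Crypt base and proliferation genes had 9 of 10 negative in GF-AOM against Control (median -0.33) and 4 of 10 in GF-AOMS against Control (0.044). Fibroblast genes had 6 of 6 negative in both (-0.32 and -0.44), and immune genes 6 of 6 and 4 of 6 positive (0.40 and 0.18), with 0 called in these 3 lists. Of the 2 tuft cell genes measured 0 were called. Of the other sources of keratin, 3 of 13 genes of squamous anal epithelium and 1 of 6 of mesothelium were measured. Their sums were at most 217.5 and 6.89 CPM. Most of the squamous sum was Sfn, which also stands in the keratin modification list. In Control it averaged 136.9 CPM, against 11.1 CPM for Sprr1a and 12.5 CPM for Ly6d. The defining genes of squamous epithelium (Trp63, Krtdap) and mesothelium (Msln, Upk3b) were not among those measured. The part of these cell types in the keratin values was not tested.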

How the data were processed

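The authors deposited 1 table with whole-number read counts and FPKM values per gene for 18 libraries, per the file headers. Per the labels' protocols ribosomal RNA was removed, RNA of integrity number 7 or more was used, and strand was kept. Per the submitters' processing notes featureCounts, DESeq2 and build GRCm39 were named, although the gene positions match GENCODE M21 of GRCm38. For the keratins they match at every end but that of Krt19, which is 2545 bases shorter. The aligner, and any version, was not given in the sources used here. Libraries held 48.95 M to 79.23 M counts (mean 56.16 M, SD 7.41 M, n = 18; M is mega), and no 2 held identical counts.

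Counts of all 10897 genes were fitted in 1 model over 18 libraries with edgeR 4.0.16 (R 4.3.3), with TMM scaling, quasi-likelihood tests and 15 residual degrees of freedom. Calls are Benjamini-Hochberg adjusted p under 0.05, two-sided, over all genes. SE is the log2 difference over the root of F, and 95% intervals use 15 degrees of freedom. Log2 CPM has a prior count of 2. The filter, FPKM of at least 1 in 6 libraries, removed no gene, and the fit was tested on simulated data. The alternatives were DESeq2 1.42.0, limma 3.58.1 on log2(FPKM + 1) or log2(FPKM + 0.1), other scalings and filters, a replicate block, a colon position term, an epithelial content term, a fit of just the 2 groups in question, and omission of each library in turn. The fit with Control replicates 1 and 2 only was added after the values were seen. Keratin genes, gene lists and the naming rule (3 genes of smallest p per pathway list, 5 most similar genes per main keratin) were chosen with earlier results of these data known. Elf3 stands in both the regulator and the epithelial list. Of the genes the naming rule selects, 1 is not reported here.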

Additional observations from a re-analysis of the deposited data

How the results depend on the processing

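The count of keratins called was 0 in each comparison, and 1 with DESeq2 in GF-AOM against Control and in GF-AOMS against Control, each time Krt7. Leaving out 1 library gave 0 to 1 in both, with the 1 reached without Control replicate 2, and 0 in GF-AOMS against GF-AOM. That replicate was high in Hoxa13 and Hoxb13, unlike Control replicates 3 to 6. The share of all genes called without it is not given here, so whether the Krt7 call stands out cannot be read from that fit. All other settings gave 0. Over 30 alternatives Krt8, Krt20 and Krt23 stayed negative in both comparisons with Control, Krt7 too, and Krt19 in GF-AOM against Control. Krt19 in GF-AOMS against Control was 0.023 with the epithelial content term. Krt18 changed sign, with colon position (-0.11 for GF-AOM and -0.17 for GF-AOMS against Control) and with Control replicates 1 and 2 only (-0.25 and -0.31); the cause was not tested. With smoke, small differences crossed 0: Krt20 was -0.00068 with the epithelial content term, and leaving out 1 library gave -0.039 to 0.046 for Krt7, -0.14 to 0.0043 for Krt18 and -0.049 to 0.20 for Krt20. The adjusted p of Krt7 ran from 0.0126 to 0.999 in GF-AOM against Control and from 0.0108 to 0.999 in GF-AOMS against Control. The replicate block left the keratin count at 0 in each comparison, with Krt7 at -0.47 in both comparisons with Control, and changed the count over all genes from 1 to 2, from 0 to 0 and from 80 to 33. Libraries of 1 number did not clearly deviate together. Of 18 pairs 7 had a correlation above 0.1 (-0.62 to 0.52, median -0.04), and 3 of 18 libraries correlated best with their own number. A pairing by number was thus not seen, but this description cannot show that there is none. Krt23, at 284 to 933 counts, is the keratin with the fewest reads. Counting strand and the treatment of reads shared with the pseudogene Krt8-ps were not stated in the sources used.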

Other observations

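A processed pseudogene of Krt8, Krt8-ps (ENSMUSG00000109325, chromosome 7, 23357125 to 23358069), was listed with 244 to 883 counts per library, 0.164% to 0.374% of the Krt8 counts. Reads shared with Krt8 may be split between the 2, so the values of both are uncertain to an extent that was not measured. Control libraries had 11.4 ± 3.63 CPM, GF-AOM libraries 6.44 ± 1.23 CPM and GF-AOMS libraries 10.1 ± 2.22 CPM (SD, n = 6). The log2 differences were -0.82 in GF-AOM against Control (SE 0.21, edgeR adjusted p = 0.0987, DESeq2 adjusted p = 0.0121), 0.65 in GF-AOMS against GF-AOM (SE 0.21, edgeR adjusted p = 1) and -0.17 in GF-AOMS against Control (SE 0.21). Krt8 itself was at -0.38, 0.12 and -0.26. Over 18 libraries the pseudogene correlated with Krt19 (r = 0.85, rho 0.81, 0.83 with group means removed) and with Krt8 (r = 0.74, rho 0.45, 0.66). It was named after its values were seen.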
